A study of Homo sapiens with 2 samples.

Results

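The genes described here are 4 caspase genes (CASP2, CASP4, CASP6 and CASP9), the caspase activator gene APAF1, and 3 genes of the inhibitor of apoptosis (IAP) family (XIAP, BIRC2 and BIRC3). They were chosen by symbol, and all 8 were found among the 63677 Ensembl gene IDs of the count tables, of which 14424 were measured, meaning a mean of at least 1 CPM (counts scaled to library size) over both libraries. RNA was sequenced from MDA-MB-231, a triple-negative human mammary carcinoma line with mesenchymal traits, in 1 library labelled control and 1 labelled for treatment with Carpesium cernuum extract (CCE), a plant extract. The labels give 1 µg/mL for 24 h as the treatment on both samples, and the sources used here do not say what was given to the control cells. Both groups are the same cell line, which is a model of breast cancer in culture without other cell types. Each group has 1 library, so there is no replicate check, no test was run, and all differences describe these 2 libraries.

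Caspases are proteases that cut after aspartate and carry a cysteine in their active site. They are made as inactive precursors. In the mitochondrial pathway of apoptosis, cytochrome c released from mitochondria binds APAF1, which assembles into the apoptosome and activates CASP9, and CASP9 in turn activates the executioner caspases. XIAP blocks active CASP9 and the executioners directly, while BIRC2 and BIRC3 (cIAP1 and cIAP2) act mainly as ubiquitin ligases in tumour necrosis factor and NF-kB signalling. Transcript levels do not report caspase activity, which depends on activation of the precursors.

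The 4 caspases are related by their catalytic site, and the coding sequence around it is shown because it is what makes them 1 family. The stretches are 33 bases long and come from the GENCODE release 44 canonical transcripts, 5′ to 3′, with the codon of the catalytic cysteine in capitals. That codon is number 320 in CASP2, 258 in CASP4, 163 in CASP6 and 287 in CASP9, counted from the first codon of the longest open reading frame.

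CASP2: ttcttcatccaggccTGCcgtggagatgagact
CASP4: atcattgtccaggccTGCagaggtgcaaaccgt
CASP6: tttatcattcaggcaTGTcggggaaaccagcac
CASP9: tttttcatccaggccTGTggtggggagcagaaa

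Few longer stretches are shared with any other gene. Windows of 50 bases in the canonical transcript were searched for, on either strand, in the transcripts of other genes. Those found made up 0% of CASP9, 0.802% of CASP4 (all shared with CASP5), 1.01% of CASP2 and 4.67% of CASP6. Genes sharing the most windows were not caspases for CASP2 (BRAF among them) and CASP6 (MCUB). MCUB overlaps 98 exon bases of CASP6 on the opposite strand. The windows therefore do not measure how far the likeness of the catalytic site extends.

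The 250 bases before the transcription start are shown for the genes at both ends of the range of ratios, CASP9 and APAF1, and for BIRC3, an established NF-kB target. They are from RefSeq on GRCh38.p14. For CASP9 the window is chr1:15524216-15524465 on the minus strand, for APAF1 chr12:98645040-98645289 on the plus strand, and for BIRC3 chr11:102317234-102317483 on the plus strand. In CASP9 and APAF1 capitals mark GC boxes (GGGCGG on either strand, overlapping matches included), the element bound by SP1. In BIRC3 they mark matches on either strand to the kappaB consensus, the element bound by NF-kB.

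CASP9: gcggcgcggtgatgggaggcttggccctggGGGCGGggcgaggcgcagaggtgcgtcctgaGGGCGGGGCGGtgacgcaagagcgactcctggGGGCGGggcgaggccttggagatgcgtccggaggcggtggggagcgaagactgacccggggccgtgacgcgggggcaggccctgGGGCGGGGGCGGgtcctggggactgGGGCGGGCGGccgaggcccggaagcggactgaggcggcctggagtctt
APAF1: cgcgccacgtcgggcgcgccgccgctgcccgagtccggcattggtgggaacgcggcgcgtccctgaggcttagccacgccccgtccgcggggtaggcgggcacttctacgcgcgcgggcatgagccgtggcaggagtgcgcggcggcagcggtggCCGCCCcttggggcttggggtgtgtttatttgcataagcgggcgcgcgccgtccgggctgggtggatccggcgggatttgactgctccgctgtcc
BIRC3: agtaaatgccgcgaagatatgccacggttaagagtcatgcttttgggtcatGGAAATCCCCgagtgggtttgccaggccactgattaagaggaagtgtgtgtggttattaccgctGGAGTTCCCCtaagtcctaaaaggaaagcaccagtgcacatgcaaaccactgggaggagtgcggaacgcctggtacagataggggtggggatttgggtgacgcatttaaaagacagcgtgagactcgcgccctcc

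CASP9 held 8 GC boxes in this window and 8 in that of its other listed start, where 0.584% of all 35116 promoter windows held at least 8. APAF1 held 1, and 42.6% of windows held at least 1. CASP2 held 4 in its first listed window and 0 in its second, CASP6 held 3 and CASP4 held 1. XIAP held 1, 2 and 0 in its 3 listed windows, BIRC2 held 0 and 1, and BIRC3 held 0. BIRC3 held 2 kappaB matches, which start 199 and 135 bases before the transcription start and overlap no GC box, and 2.03% of windows held at least 2. BIRC2, its neighbour and closest relative, held none in either of its listed windows, while 12.3% of all windows held at least 1. CASP2 held 1 kappaB match in its second listed window. The minimum numbers of 8 and 2 were set from the matches in CASP9 and BIRC3, and other motifs were searched as well. These are matches of letters and not shown to be bound sites in these cells. Their part in the ratios was not tested.

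Depth on genes was 5633569 counts for the control and 34884501 for the CCE library. After scaling, 1 count was worth 0.180 CPM in the former and 0.0283 CPM in the latter, with TMM factors that adjust library sizes for composition. The control library therefore sets the precision. Among markers of the cell line, VIM, CD44, EGFR, CAV1 and AXL were between 158 and 3739 CPM in both libraries, while of the luminal markers ESR1 and FOXA1 had 0 counts in both, PGR 0 and 6, CDH1 0 and 1, and GATA3 10 and 66. The mesenchymal markers were themselves lower in the CCE library, at log2 ratios of -1.10 to -0.20.

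Between the 2 libraries, the transcripts of the apoptosome genes CASP9 and APAF1 differed in opposite directions. CYCS, which encodes cytochrome c, had a log2 ratio of -0.23 (-0.30 to -0.16). CASP9 was about 2-fold higher in the CCE library and APAF1 was nearly as far lower. CASP2, CASP6 and BIRC3 were lower by smaller steps, and CASP4, XIAP and BIRC2 had ratios whose counting interval included no difference. With total-count scaling the log2 intervals of CASP4 (0.015 to 0.31) and BIRC2 (0.022 to 0.22) lay above 0, so for these genes that statement depends on the scaling. The 8 log2 ratios had a median of -0.20, from -0.95 to 1.01, beside a median of 0.05 over all measured genes. By the call used here, a ratio of at least 2-fold with a 95% counting interval that excludes 1, 1 of the 8 genes was higher and 0 were lower, where 4.36% of the measured genes were higher and 4.92% lower. With TMM scaling an interval wholly above 1 was found for 1 gene and wholly below 1 for 4, where 30.1% and 25.1% of the measured genes had such intervals. Intervals are exact Clopper-Pearson intervals. They cover counting error alone, which leaves out variation between cultures, and PCR copies are not independent molecules.

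**Figure D1:**
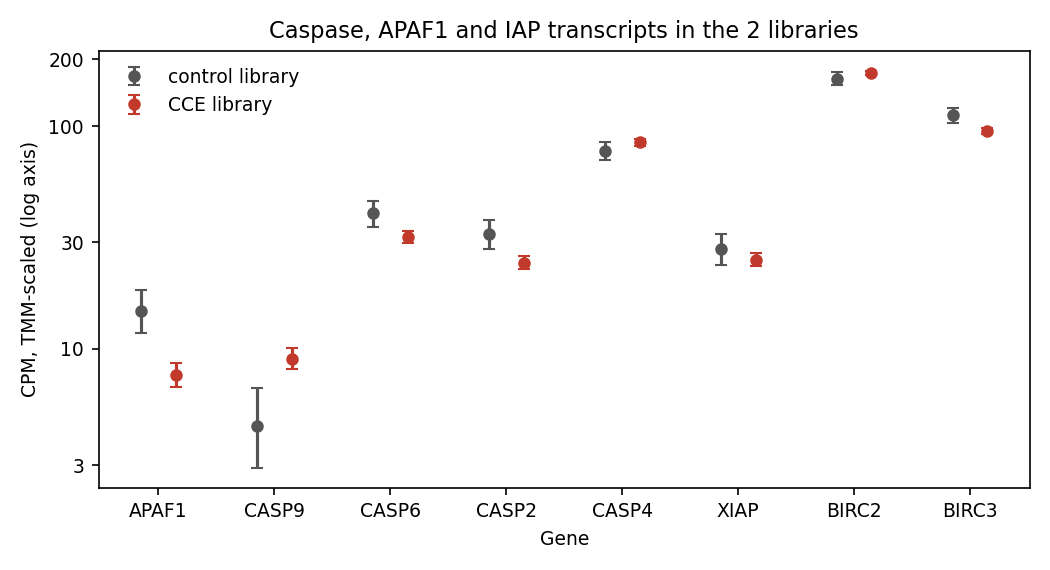
Level of each gene in CPM (y axis, log scale, TMM-scaled) in the control library (grey) and the CCE library (red). Points are single libraries and bars are exact 95% counting intervals. The intervals of CASP9 and of APAF1 do not overlap between the libraries and lie in opposite order, with CASP9 at 4.50 and 9.03 CPM and APAF1 at 14.7 and 7.61 CPM, while those of BIRC2 and CASP4 overlap.

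CASP9 encodes the initiator caspase of the mitochondrial pathway (ENSG00000132906, chromosome 1 from 15817327 to 15853029, minus strand, GRCh37). Its count was 25 in the control and 319 with CCE. That was 4.50 CPM (interval 2.91 to 6.64) against 9.03 CPM (8.06 to 10.1), so the counting intervals did not overlap. The CCE library was 2.01-fold higher (1.34 to 3.15, log2 ratio 1.01, 0.42 to 1.65), at percentile 95.1 of the measured genes. Its ratio lies at the edge of the 2-fold call: with upper-quartile scaling the log2 ratio was 0.96 and CASP9 was no longer called. It also rests on the lowest control count of the 8 genes. Among 1060 protein-coding genes with 15 to 35 control counts, a range set after the value was seen, 7.26% were called higher and 12.5% lower. By the authors' FPKM, CASP9 was higher as well, at 0.644 in the control and 3.26 with CCE.

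APAF1 encodes the scaffold on which CASP9 is activated (ENSG00000120868, chromosome 12 from 99039068 to 99129211, plus strand). There were 82 counts in the control and 269 with CCE, or 14.7 CPM (11.7 to 18.3) against 7.61 CPM (6.73 to 8.58), again without overlap of the intervals. The log2 ratio was -0.95 (-1.32 to -0.58), a level in the CCE library 0.516 times that in the control, at percentile 5.83 of the measured genes. It stayed short of the 2-fold call under the 4 scalings, from -0.999 to -0.917. Of its exon bases, 9.67% are shared with ANKS1B on the opposite strand, and the sources used here do not say whether counting used strand. ANKS1B had 16 and 117 counts, a log2 ratio of 0.20 (-0.56 to 1.06), and its part in the APAF1 value was not tested. FPKM was lower too, at 1.83 and 0.856.

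Because a single factor scales all genes of a library, the proportion of counts between CASP9 and APAF1 is the same under the 4 scalings. The control held 0.305 CASP9 counts per APAF1 count and the CCE library 1.19, a 3.89-fold difference (95% counting interval 2.38 to 6.53). By FPKM the proportion was another, with CASP9 at 0.644 and APAF1 at 1.83 in the control, and 3.26 and 0.856 with CCE. No adjustment for base composition was made. Per kilobase of annotated exon, APAF1 was above CASP9 in the control library, at 1.90 against 0.853 CPM per kilobase, and below it in the CCE library, at 0.981 against 1.71. CASP9 was also higher relative to its inhibitor: the number of CASP9 counts per XIAP count was 0.160 in the control and 0.359 with CCE, 2.24-fold (1.43 to 3.64). Of the 28 pairs among the 8 genes, 19 had a proportion whose interval excluded 1. They comprised all 13 pairs with CASP9 or APAF1 and 6 of the 15 pairs without them. CASP9 and APAF1 have the highest and lowest ratios of the 8 genes, so this count restates those ratios and adds no support. For the same reason their 3.89-fold difference is the largest of the 28 pairs, and its interval makes no allowance for that choice. Pairs of other genes were not counted for comparison.

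**Figure D2:**
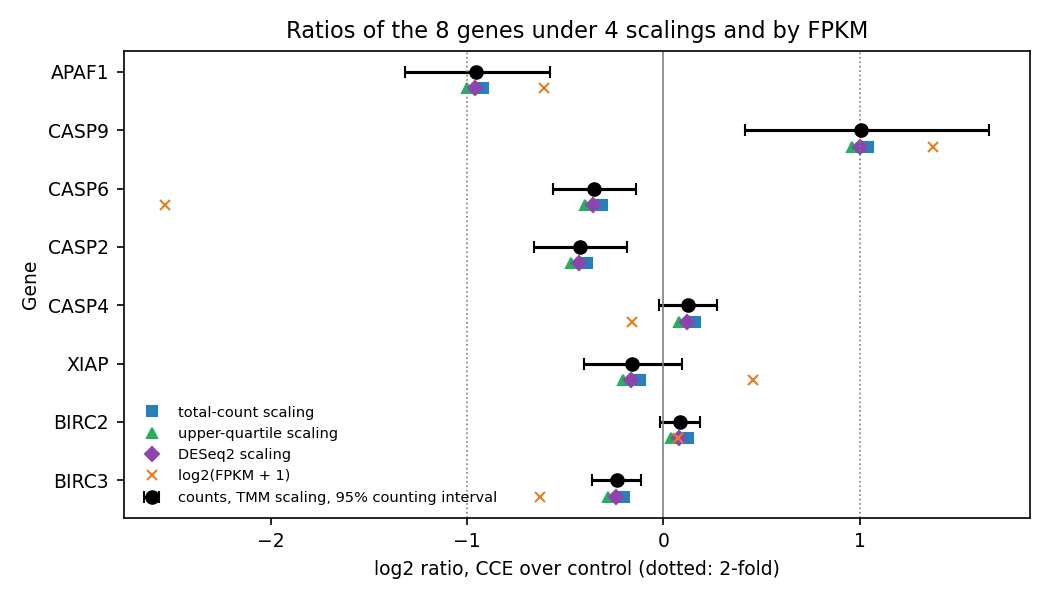
log2 ratio of CCE over control (x axis) for each gene (y axis). Black points are TMM-scaled counts with 95% counting intervals, coloured symbols the 3 other scalings and orange crosses the FPKM values with a pseudocount of 1. CASP2 has no cross because its FPKM is listed at 0 in the control library. The scalings stay within 0.083 of each other for every gene, while FPKM puts CASP6 at -2.54 and places CASP4 and XIAP on the other side of 0.

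The remaining caspases differed less. CASP2, which acts in the PIDDosome, a complex that responds to DNA damage and extra centrosomes (ENSG00000106144, chromosome 7 from 142985308 to 143004789, plus strand), had 182 and 861 counts. Its level was 32.7 CPM (28.1 to 37.8) in the control and 24.4 CPM (22.8 to 26.0) with CCE, and these intervals did not overlap. The log2 ratio was -0.43 (-0.66 to -0.19). The FPKM of this gene is listed at 0 for the control despite the 182 counts, and at 3.99 with CCE.

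CASP6, an executioner caspase that cuts nuclear lamins (ENSG00000138794, chromosome 4 from 110609778 to 110624739, minus strand), had 225 and 1120 counts. It stood at 40.5 CPM (35.4 to 46.1) and 31.7 CPM (29.9 to 33.6), also without overlap, a log2 ratio of -0.35 (-0.56 to -0.14). FPKM put the difference much higher, at 23.9 and 3.29, in the same direction. MCUB on the opposite strand shares 5.04% of the exon bases of CASP6 and was lower in the CCE library as well (278 and 1014 counts, log2 ratio -0.80, -0.99 to -0.60). Its part in the CASP6 value was not tested.

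CASP4, an inflammatory caspase that binds bacterial lipopolysaccharide in the cytosol and cuts gasdermin D (ENSG00000196954, chromosome 11 from 104813593 to 104840093, minus strand), had 431 and 2985 counts. It had the largest counts of the 4 caspases. The level was 77.5 CPM (70.4 to 85.2) in the control and 84.5 CPM (81.5 to 87.5) with CCE, with overlapping intervals. The log2 ratio was 0.12 (-0.02 to 0.27), or 0.985- to 1.21-fold. By FPKM it was slightly lower, at 31.1 and 27.7. The proportions between caspases shifted: CASP2 counts per CASP4 count were 0.422 in the control and 0.288 with CCE, 0.683-fold (0.564 to 0.830).

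The 3 IAP genes had log2 ratios between -0.24 and 0.08. XIAP, the most potent direct caspase inhibitor of the family (ENSG00000101966, chromosome X from 122993562 to 123047822, plus strand) had 156 and 888 counts, or 28.1 CPM (23.8 to 32.8) and 25.1 CPM (23.5 to 26.8). Its log2 ratio of -0.16 had an interval of -0.41 to 0.10 and thus spanned 0, and FPKM went the other way, at 2.94 and 4.40. Copies of XIAP elsewhere in the genome took hardly any counts: the processed copy BIRC8 had 0 in both libraries and the pseudogene XIAPP1 had 1 in each.

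BIRC2 and BIRC3 lie side by side on chromosome 11 on the plus strand, BIRC3 (ENSG00000023445) from 102188215 to 102210134 and BIRC2 (ENSG00000110330) from 102217942 to 102249401, with 7807 bases between them. In spite of their kinship, only 11 windows of 50 bases were common to their canonical transcripts (0.296% of those of BIRC2). BIRC2 had 907 and 6114 counts. Its level of 163 CPM (153 to 174) and 173 CPM (169 to 177) gave a log2 ratio of 0.08 (-0.02 to 0.19), and by FPKM it was 36.1 and 38.1. With this depth the interval was narrow, from 0.989- to 1.14-fold.

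BIRC3 had 622 and 3352 counts. It was 112 CPM (103 to 121) in the control and 94.8 CPM (91.7 to 98.1) with CCE, with intervals that did not overlap. The log2 ratio was -0.24 (-0.36 to -0.11), 0.848-fold, and by FPKM the level was 36.2 and 23.1. The proportion of the neighbours shifted as well: there were 1.46 BIRC2 counts per BIRC3 count in the control and 1.82 with CCE, a 1.25-fold difference (1.12 to 1.40). The NF-kB feedback gene TNFAIP3 had a log2 ratio of -2.00 (-2.30 to -1.70). It was the only gene called among the measured signalling partners described below, of which 10 had a ratio above 0 and 5 below. The part of the kappaB matches in the BIRC3 ratio was not tested.

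Levels can be set against each other between genes only per length, here in CPM per kilobase of all annotated exons. In the control library the order was BIRC2 (36.1), CASP6 (20.8), BIRC3 (14.9), CASP4 (11.6), CASP2 (4.08), XIAP (2.95), APAF1 (1.90) and CASP9 (0.853), and no neighbours in that order had overlapping counting intervals. In the CCE library BIRC2 (38.3) and CASP6 (16.3) again led, and BIRC3 and CASP4 had overlapping intervals, both at 12.7. CASP2 (3.04) and XIAP (2.64) followed, and the last places were exchanged, with CASP9 at 1.71 and APAF1 at 0.981. Summed over each family, the 4 caspases had 37.4 CPM per kilobase in the control and 33.7 with CCE, and the 3 IAP genes 54.0 and 53.6.

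**Figure D3:**
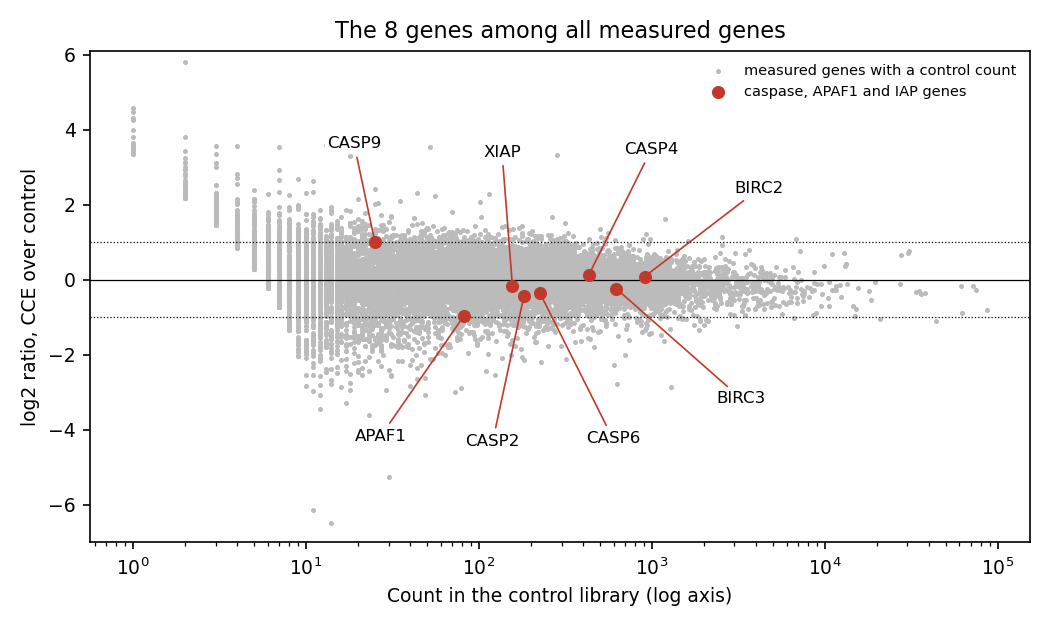
log2 ratio of CCE over control (y axis) against the count in the control library (x axis, log scale) for all measured genes with a control count (grey) and the 8 genes (red, named). The cloud widens toward low counts. CASP9, with 25 control counts, lies on the upper 2-fold line where the cloud is wide, and APAF1, with 82, just above the lower line.

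Base composition moved with the ratios across genes. Over 11637 measured protein-coding genes the GC content of the longest transcript and the log2 ratio had a Spearman correlation of -0.22, a description across genes that share 2 libraries. Genes under 45% GC had a median log2 ratio of 0.15, those from 45% to 55% of 0.06 and those at 55% or more of -0.11. 7 of the 8 genes lie under 45%, from 35.8% in BIRC3 to 43.6% in CASP2, with APAF1 at 41.8%, and CASP9 stands at 52.8%. The part of base composition in the ratios of the 8 genes was not tested.

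Genes around these 8 were described by 7 lists (72 symbols, 71 matched, 59 measured). By the call above 0 of the 59 were higher and 4 were lower, beside 4.36% and 4.92% of all measured genes, and 1 of the 4 (NLRP3) passed the 1 CPM minimum only through the control library. An interval wholly above 1 was found for 22 and wholly below 1 for 22, beside 30.1% and 25.1%. Nothing particular to the lists is read from these counts. Their median log2 ratio was 0.02.

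Among the other caspases, 4 of 8 were measured, and none was called in either direction. Of these 4, 3 had a ratio above 0 and 1 below, with a median log2 ratio of 0.23. The death receptor caspase CASP8 had 0.02 (-0.19 to 0.25), and its paralog CASP10 -0.60 (-1.12 to -0.05), with 38 control counts. CASP5, CASP12 and CASP14 had 0 counts in both libraries, for which the floor of 3 counts stands at 0.540 CPM in the control and 0.0849 CPM with CCE. CASP4 was the only measured inflammatory caspase, since CASP1 had 6 and 25 counts, which is under the 1 CPM minimum. Of the other IAP family genes, BIRC5 (survivin, which also serves in mitosis) had -0.71 (-0.86 to -0.56) and the giant ubiquitin ligase gene BIRC6 0.31 (0.14 to 0.47).

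The mitochondrial factors and IAP antagonists had a median of -0.09 over 6 measured members of 7, with 0 called. CYCS, which encodes the cytochrome c that triggers APAF1, was at 351 and 300 CPM (log2 ratio -0.23, -0.30 to -0.16), and HTRA2, a mitochondrial protease that binds IAPs, had 0.05 (-0.14 to 0.25). AIFM1, a mitochondrial flavoprotein released in cell death, had 0.30 (0.08 to 0.53). XAF1, the interferon-inducible antagonist of XIAP, had 36 and 124 counts and -0.88 (-1.43 to -0.31), and 38.3% of its exon bases are shared with other genes. The adaptors had a median of -0.02 over 8 members, with 0 called. CRADD, the adaptor of CASP2 in the PIDDosome, had 0.57 (0.07 to 1.12), CASP8AP2 0.53 (0.30 to 0.77), and FADD, the death receptor adaptor, -0.20 (-0.33 to -0.06). Other genes also share 59.2% of the exon bases of FADD and 32.3% of those of HTRA2.

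In the list of caspase substrates, with a median of -0.02 over 12 members, 1 was called lower: the lamin gene LMNB1, at 165 and 459 counts and a log2 ratio of -1.19 (-1.45 to -0.93). XKR8, the scramblase that exposes phosphatidylserine once caspases cut it, had -0.69 (-0.97 to -0.42). The abundant members LMNA and PAK2 had -0.53 (-0.59 to -0.48) and 0.19 (0.10 to 0.28).

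The list of the inflammatory caspase pathway had a median of -0.18 over 12 measured members of 16, with 2 called lower. They were IL1B, at 124 and 136 counts and a log2 ratio of -2.53 (-2.90 to -2.17), and the inflammasome sensor gene NLRP3, at 13 and 15 counts and -2.46 (-3.63 to -1.27). NLRP3 passed the 1 CPM minimum only through the control library (2.34 against 0.424 CPM), so its call follows in part from that minimum and supports nothing here, and 66.0% of its exon bases are shared with other genes. Without it, 1 member of this list was called lower. The gene of the CASP4 substrate gasdermin D, GSDMD, named after its value was seen, had 230 and 743 counts and -0.98 (-1.19 to -0.76). GBP1, a guanylate-binding protein that recruits CASP4 to bacteria, had -0.19 (-0.34 to -0.05), and the membrane rupture gene NINJ1 0.44 (0.28 to 0.59). CASP4 itself was at 0.12 (-0.02 to 0.27).

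Of the signalling partners of BIRC2 and BIRC3, 15 of 16 were measured, with a median of 0.24. 1 was called lower, the ubiquitin-editing gene TNFAIP3 (A20), at 154 and 245 counts. MAP3K14, the kinase of noncanonical NF-kB signalling that the cIAPs mark for degradation, had 126 and 1378 counts and 0.78 (0.52 to 1.06). The most abundant partners were RBCK1, of the linear ubiquitin ligase complex, at 0.19 (0.10 to 0.28), and the receptor gene TNFRSF1A at 0.27 (0.12 to 0.42).

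**Figure D4:**
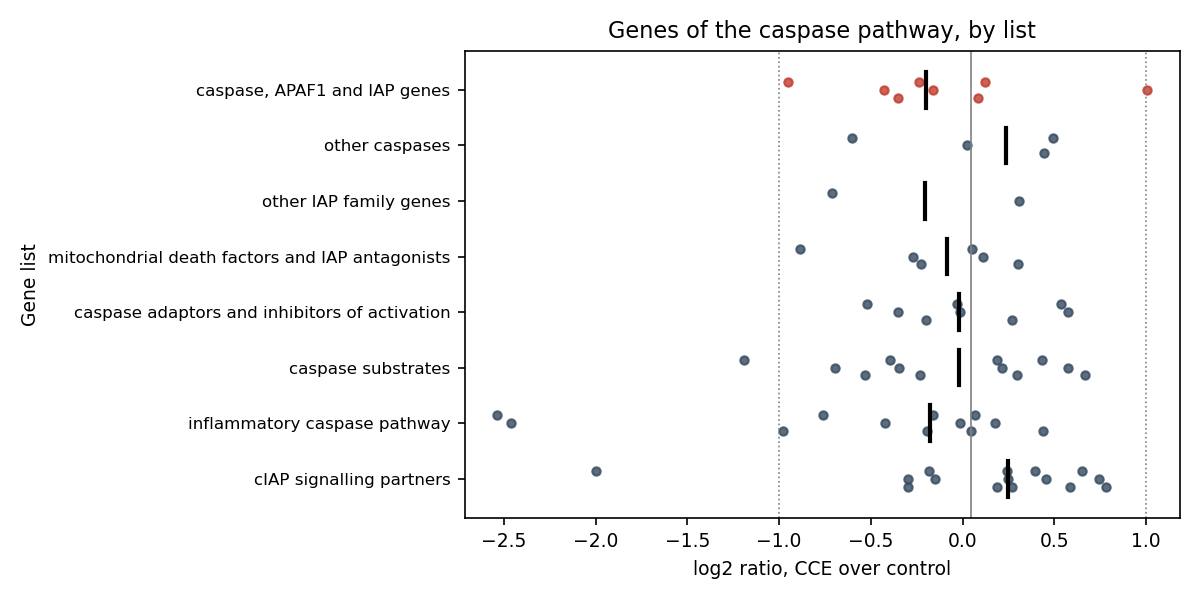
log2 ratio of CCE over control (x axis) for every measured gene of each list (y axis), with the 8 genes in red. Black bars are list medians, the grey line is the median of all measured genes (0.05) and dotted lines mark 2-fold. CASP9 is the rightmost point of all lists, and the 4 points left of the lower 2-fold line are IL1B, NLRP3, TNFAIP3 and LMNB1.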

How the data were processed

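The authors deposited raw counts per Ensembl gene ID for both libraries and, in separate tables, FPKM values. Per the submitters' processing notes, the tool HISAT2 and the builds GRCh37 and hg19 are named. The counting program, its use of strand, its annotation and the FPKM program are not given in those notes or the labels. The 5 rows that name no gene held 62.9% of the control records and 66.8% of the CCE records and were left out. The deposited FPKM tables repeat gene IDs without transcript IDs, so rows were summed per gene and no transcript was compared; their depth is unknown.

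Symbols, positions and exon lengths came from GENCODE release 44 on GRCh37 (55665 IDs matched). Scaling used TMM factors (edgeR 4.0.16, R 4.3.3), with DESeq2 1.42.0 as an alternative; intervals used scipy 1.17.1. Ratios of counts had no pseudocount. All 8 genes are reported; in each other list, called genes, up to 2 with the largest absolute ratio and up to 2 of the most abundant are named, apart from a few not reported here. The members and lists were chosen with earlier results of these data known. Ratios, intervals and calls were run on simulated counts with counting error alone and known scaling, which checks the calculation only. Variation between cultures, PCR copies and errors of scaling were not simulated. Libraries carry no replicates, so no p-value is given.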

Additional observations from a re-analysis of the deposited data

How the results depend on the processing

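With 1 library per group no library could be left out, and every value stands without a replicate check. No paired analysis was possible because each group has 1 library. Total-count, upper-quartile and DESeq2 scaling kept the 8 ratios within their counting intervals. The call of CASP9 ended under upper-quartile scaling, with 0 genes called higher, and the intervals of CASP4 and BIRC2 excluded 0 under total-count scaling. At 1.5-fold, 1 gene (APAF1) was called lower. The control depth limits CASP9 and APAF1 most.

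The authors' FPKM moved more. With a pseudocount of 1 and 0.1 the log2 ratios were -0.16 and -0.17 for CASP4, -2.54 and -2.82 for CASP6, 0.46 and 0.57 for XIAP, and -0.63 and -0.65 for BIRC3. CASP9 was at 2.17 with 0.1. CASP2 got no ratio, being listed at 0 in the control library. On these scales 2 of the 8 genes were past 2-fold higher with either pseudocount, counting CASP2, and 1 and 2 were past 2-fold lower. List medians went to -1.09 and -1.24 for the inflammatory caspase pathway, -0.57 and -0.80 for the mitochondrial factors, -0.30 and -0.32 for the adaptors, -0.19 and -0.20 for the substrates and -0.05 and -0.07 for the other caspases. Over all measured genes 2081 and 3136 were past 2-fold higher and 2001 and 2626 lower. The cause of the difference between counts and FPKM was not tested.

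The counts of 629 higher and 710 lower measured genes became 288 and 331 at a mean of 5 CPM, 1744 and 1628 at 1.5-fold, and 278 and 298 among genes that overlap no other gene. Among protein-coding genes 379 were higher and 504 lower. With no count filter the medians of short lists shifted, from 0.23 to 0.02 for the other caspases, from -0.20 to -0.35 for the other IAP genes and from -0.09 to -0.23 for the mitochondrial factors. A mean of 5 CPM, which leaves out NLRP3, moved the inflammatory list from -0.18 to -0.09.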
